A study of Mus musculus with 2 samples.

Results

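The genes described here serve antigen presentation in the mouse. They are the 56 genes, read by 73 probes, whose name on the array starts with H2- or is B2m, Cd74, Ciita, Tap1, Tap2, Tapbp, Psmb8, Psmb9, Psmb10, Erap1, Nlrc5, Cd1d1, Mr1, Ctss or Calr. The array holds 55678 non-control probes, and those with a gene name cover 23854 genes. Among the 56 genes, 2 encode classical class I heavy chains and 27 nonclassical class I molecules, 10 belong to class II, 8 to class I loading and MHC-like molecules and 3 to the immunoproteasome, and 2 are the regulators Ciita and Nlrc5. The invariant chain gene Cd74 and the protease gene Ctss stand beside class II. The remaining 2, H2-Ke2 and H2-Ke6, carry an H2 name for their place in the complex and have no part in presentation.

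RNA came from epithelial cells of intestinal segments of wild-type male mice. In the cholic acid group the segments were kept for 2 h with 0.5 µM cholic acid, a primary bile acid. In the vehicle group they were kept for 2 h with 0.05% DMSO and 0.25% ethanol. The series looks for bile acid-dependent target genes of the nuclear receptor PPARα. No solvent is stated for cholic acid, and the labels name no strain, MHC haplotype, age, number of mice or intestinal stretch. Each group was 1 one-colour array, both on the same slide, so differences are given by size, without a replicate check or a p-value.

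MHC class I molecules display peptides from inside the cell to CD8 T cells, as a heavy chain paired with beta-2 microglobulin. The peptides are cut by the proteasome, carried into the endoplasmic reticulum by the TAP transporter and loaded with the help of tapasin and calreticulin. Class II molecules are pairs of an alpha and a beta chain that display peptides from endosomes to CD4 T cells. The invariant chain guards their groove until cathepsin S trims it, the DM molecule then exchanges its remnant for peptide, and the DO molecule restrains DM. Small intestinal epithelium is known to express class I and class II molecules, and its nonclassical class I molecules are ligands for intraepithelial lymphocytes.

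Signals are the scanner software's processed intensities, in arbitrary units that compare a probe with itself on the other array but not with other probes. A probe is called detected here where the software flagged it as well above background. The 75th percentile of the probes detected on both arrays was a signal of 741 on the cholic acid array and 1060 on the vehicle array. Each log2 difference is cholic acid minus vehicle after that percentile was subtracted, so a probe with equal scaled signals has a raw ratio of 0.699. The difference of a gene averages its probes that were detected on both arrays, and a gene was called higher or lower when it was at least 2-fold apart. Over the 12859 genes measured on both arrays the median difference was 0.08, with a robust SD of 0.48.

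The module as a whole was well detected and near the middle of the table, and its class II genes went both ways. Of the 73 probes, 58 were detected with cholic acid and 54 with vehicle. The 54 were detected on both arrays, 74.0% of the member probes beside 40.6% of all non-control probes. The other 4 were detected with cholic acid alone, beside 3.29% of all non-control probes, and 0 with vehicle alone, beside 2.85%. Of the 56 genes 46 were measured on both arrays, 2 on the cholic acid array alone (3.13% of all named genes were), 0 on the vehicle array alone (2.48%) and 8 on neither. H2-Eb2, H2-Oa, Cd1d1 and H2-Q8 were at least 2-fold higher with cholic acid, 4 of 46 genes or 8.70%, where 6.57% of all genes were. H2-Eb1 and H2-Bl were at least 2-fold lower, 2 of 46 genes or 4.35%, where 2.05% of all genes were. Single probes at least 2-fold apart numbered 4 higher, where 7.08% of all detected probes were, and 4 lower, where 1.94% were. A limit of 1.5-fold added H2-DMb1 and H2-M3 to the higher genes, 6 in all beside 17.8% of all genes. It took the lower genes to 8 beside 7.71%, with Ctss, H2-DMa, H2-Q2, H2-T9, Tap1 and Tapbp added. At 3-fold only H2-Eb2 was higher, where 1.38% of all genes were, and 0 members were lower, where 0.327% were. The median of the 46 was 0.00, which is -0.08 from the median of all genes.

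**Figure D1:**
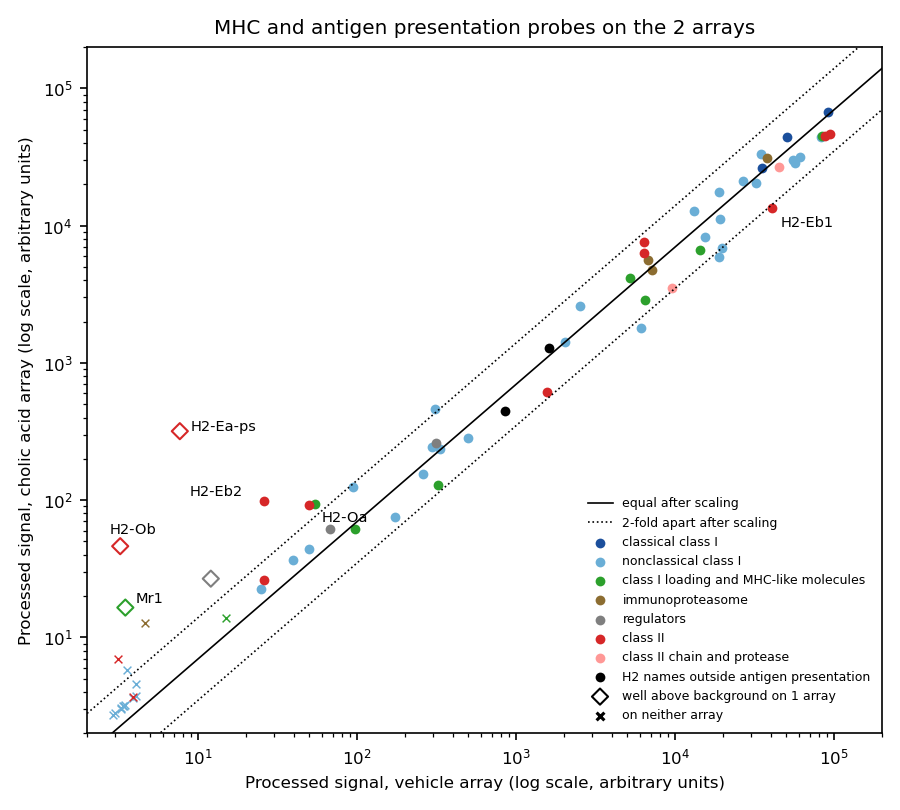
Processed signal of the 73 member probes, with the cholic acid array on the y axis and the vehicle array on the x axis (both log scale, arbitrary units). Each mark is 1 probe, coloured by family; the solid line marks equal signals after scaling and the dotted lines 2-fold apart. H2-Ea-ps, at 318 with cholic acid and 7.66 with vehicle, stands farthest from the line, and most bright probes lie between the dotted lines.

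The classical class I heavy chains were bright and differed little. H2-K1 was read by a probe spotted 10 times, with a mean signal of 67100 on the cholic acid array and 91210 on the vehicle array. The SD of log2 signals between its spots was 0.02 on the cholic acid array and 0.03 on the vehicle array, and the log2 difference was 0.07. A second H2-K1 probe gave 26200 on the cholic acid array and 35100 on the vehicle array, a difference of 0.09. H2-D1 had a signal of 44300 with cholic acid and 50500 with vehicle, a difference of 0.33. The raw signals of both genes were lower with cholic acid and their scaled signals slightly higher. H2-K1 had a difference below 0 under 7 of the 13 settings run, and H2-D1 under centring on the median and spike-in scaling.

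Nonclassical class I genes lay on both sides of 0, within the Q and T regions too, and the probes of some genes disagreed. Of the 27 genes 20 were measured on both arrays. Among these, 1 was at least 2-fold higher (5.0%, beside 6.57% of all genes) and 1 lower (5.0%, beside 2.05%). The 20 lay 9 above 0 and 11 below. Their median difference was -0.08, or -0.16 from the median of all genes, and it stayed below that median under all 13 settings. At the level of probes, 26 of 37 (70.3%) were detected on both arrays.

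In the Q region, H2-Q8, one of the genes behind the Qa-2 antigen, had a signal of 461 with cholic acid and 307 with vehicle (2.15-fold higher). It stayed above 0 under all 13 settings but was under 2-fold with the 75th percentile over all probes (0.87), centring on the median (0.55), spike-in scaling (0.27), normexp (0.98) and the GC lowess (0.94). H2-Q7, another Qa-2 gene, gave 33300 with cholic acid and 34600 with vehicle (0.46), and H2-Q6 gave 21100 with cholic acid and 26600 with vehicle (0.18). H2-Q4 gave 12800 with cholic acid and 13100 with vehicle (0.48). These 4 were above 0, although H2-Q7, H2-Q6 and H2-Q4 turn below 0 under centring on the median and spike-in scaling, and H2-Q6 also under the 75th percentile over all probes and the GC lowess. H2-Q1 had 11100 with cholic acid and 19200 with vehicle (-0.27), and H2-Q5 had 28700 with cholic acid and 56400 with vehicle (-0.46). H2-Q1 and H2-Q5 were below 0 under all 13 settings.

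H2-Q2 and H2-Q10, of which H2-Q10 is known as a class I molecule secreted by liver, were each read by a pair of probes that differed from each other. One H2-Q2 probe gave 5940 with cholic acid and 19000 with vehicle (-1.16), and the other 44000 with cholic acid and 83200 with vehicle (-0.40). One H2-Q10 probe gave 1800 with cholic acid and 6100 with vehicle (-1.24), and the other 242 with cholic acid and 295 with vehicle (0.23). The probes with the lower difference are near copies of each other: 45 of their 50 aligned bases match. They are printed because the pair shows how little sequence separates probes with different gene names. Capitals mark the positions where the aligned parts differ, with the H2-Q2 probe at chr17:35460007-35460066 and the H2-Q10 probe at chr17:35610036-35610095 (mm9, plus strand, per the file headers).

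H2-Q2: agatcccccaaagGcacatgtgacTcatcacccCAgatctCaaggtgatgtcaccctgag

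H2-Q10: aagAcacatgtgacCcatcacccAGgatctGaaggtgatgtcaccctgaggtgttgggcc

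The other H2-Q2 probe lies at chr17:35482113-35482172, on the far side of the H2-Q1 probe at chr17:35461859-35461918. Transcripts of neighbouring class I genes could bind both printed probes, so these values are uncertain as to gene. The gap between the H2-Q10 probes was the largest among the 8 member genes with several probes measured on both arrays. The smallest gap was 0.02 on the log2 scale, for H2-K1, and in 5 of the 8 genes all probes had one sign.

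In the T region, H2-T23, which encodes Qa-1, a ligand of the NKG2A receptor, gave 31800 with cholic acid and 61100 with vehicle (-0.43). H2-T3, which encodes the thymus leukaemia antigen that binds CD8αα on intraepithelial lymphocytes, gave 17700 with cholic acid and 18800 with vehicle on one probe (0.43). Its other probe gave 2580 with cholic acid and 2530 with vehicle (0.54). The 2 genes lay on opposite sides of 0, H2-T3 in all but centring on the median and spike-in scaling, where it too was below 0. H2-T18, a second gene of the thymus leukaemia antigen, gave 1430 with cholic acid and 2040 with vehicle on one probe (0.00), and 286 with cholic acid and 500 with vehicle on the other (-0.29). These probes match at 53 of 56 aligned bases. They are shown as they differ at only 3 places, in capitals; the files give neither a genome position, and the gene lies on chromosome 17 in RefSeq.

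H2-T18 brighter probe: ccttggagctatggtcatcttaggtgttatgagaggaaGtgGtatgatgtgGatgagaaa

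H2-T18 dimmer probe: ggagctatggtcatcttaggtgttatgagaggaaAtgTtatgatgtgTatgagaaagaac

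The second H2-K1 probe (chr17:34133984-34134043, mm9, minus strand) and the H2-T23 probe (chr17:36167338-36167574, mm9, minus strand) share a run of 29 bases, in capitals, the longest between different member genes. Their log2 differences were 0.09 for H2-K1 and -0.43 for H2-T23.

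H2-K1: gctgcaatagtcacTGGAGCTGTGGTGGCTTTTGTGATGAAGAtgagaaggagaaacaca

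H2-T23: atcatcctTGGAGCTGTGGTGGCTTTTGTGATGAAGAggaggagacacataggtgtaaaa

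Of the 2628 pairs among the 73 probes, 10 shared a run of at least 15 bases, 3 of them within 1 gene. The other T genes were dimmer. H2-T9 gave 74.8 with cholic acid and 172 with vehicle (-0.68). H2-T10, whose product is known as a ligand of gamma-delta T cell receptors, gave 154 with cholic acid and 260 with vehicle (-0.24). H2-T24 gave 22.6 with cholic acid and 25.0 with vehicle (0.37), near the lowest detected signals, 13.01 on the cholic acid array and 14.6 on the vehicle array.

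H2-Bl, K2 and M genes complete the nonclassical set. H2-Bl, a blastocyst class I gene whose probe has no position in the files, gave 6910 with cholic acid and 19800 with vehicle (2.00-fold lower). The H2-K2 probes gave 30000 with cholic acid and 55200 with vehicle (-0.36), and 20300 with cholic acid and 32200 with vehicle (-0.15). H2-M3, which presents N-formylated peptides, gave 125 with cholic acid and 94.4 with vehicle (0.92), and was above 0 under all 13 settings.

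H2-M2 was again a gene whose probes disagreed. Its probe with 10 spots averaged 8245 with cholic acid and 15340 with vehicle (-0.38), with an SD between spots of 0.06 on the cholic acid array and 0.04 on the vehicle array in log2. Its other probe gave 44.4 with cholic acid and 49.5 with vehicle (0.36). H2-M11 gave 235 with cholic acid and 333 with vehicle (0.01), and H2-M9 gave 36.7 with cholic acid and 39.6 with vehicle (0.41). H2-M1, H2-M5 and the M10 group genes on the array, known from vomeronasal neurons (H2-M10.1, H2-M10.2, H2-M10.3, H2-M10.4 and H2-M10.6), were not well above background with cholic acid or with vehicle.

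Most member genes that load class I had a lower scaled signal with cholic acid, although none was 2-fold lower. This did not hold for 9 other genes of class I loading and the proteasome activator. Of those, 7 were above 0 and 2 below, with a median of 0.17. B2m, the light chain of class I molecules, averaged 44800 with cholic acid and 84310 with vehicle over 2 spots (-0.40). Tap1, a chain of the peptide transporter read by a probe spotted 10 times, averaged 128.4 with cholic acid and 321.7 with vehicle (-0.81). Before scaling, the 10 Tap1 spots ran between 117 and 142 on the cholic acid array and between 305 and 343 on the vehicle array. Such ranges describe these arrays and not the spread between animals. Unscaled spots of the 10-spot H2-K1 probe were also apart, although its difference was 0.07. They ran between 65100 and 69300 with cholic acid and between 88800 and 96000 with vehicle.

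Tap2, the partner of Tap1, gave 6670 with cholic acid and 14300 with vehicle (-0.58). Tapbp, or tapasin, which bridges TAP to empty class I molecules, gave 2880 with cholic acid and 6430 with vehicle (-0.64). B2m, Tap1, Tap2 and Tapbp were below 0 under all 13 settings. Erap1, which trims peptides in the endoplasmic reticulum, gave 61.7 with cholic acid and 97 with vehicle (-0.14, above 0 under normexp). Calr, or calreticulin, gave 4180 with cholic acid and 5200 with vehicle (0.20), and was below 0 under 3 scalings. Over the 7 genes of class I loading and MHC-like molecules measured on both arrays, Cd1d1 included, the median was -0.40. This was -0.48 from the median of all genes, and it was below that median under all 13 settings.

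The MHC-like molecules Cd1d1 and Mr1 lay on the other side. Cd1d1, which presents lipids to NKT cells, gave 93.3 with cholic acid and 54.0 with vehicle (1.31, 2.47-fold). It was under 2-fold with centring on the median (0.75), spike-in scaling (0.47), normexp (0.93), and 0.86 with the positive and significant flag or no filter, and above 0 under all 13 settings. The software's own error for these signals was 9.75 with cholic acid and 6.2 with vehicle. A second Cd1d1 probe, at 13.9 with cholic acid and 15 with vehicle, was not well above background with either. Mr1, which presents vitamin B metabolites to MAIT cells, gave 16.5 with cholic acid and 3.48 with vehicle, detected with cholic acid alone. It was at least 1.62-fold higher there, a bound that ranks 614 among the 747 genes detected on the cholic acid array alone. Such a bound compares the detected signal with the lowest detected signal of the other array, or with the probe's own signal there if that is higher. All bounds given here hold at the reported scaling only. That of Mr1 is 0.69 in log2, beside shifts of all genes by -0.56 under centring on the median and -0.84 under spike-in scaling.

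The immunoproteasome, the interferon-inducible set of catalytic subunits, was close to the middle of the table. Psmb8 gave 4710 with cholic acid and 7100 with vehicle (-0.08). Psmb9 gave 5570 with cholic acid and 6720 with vehicle (0.25), while its second probe, at 12.7 with cholic acid and 4.64 with vehicle, was not well above background with either. Psmb10 gave 31100 with cholic acid and 37600 with vehicle (0.24). None reached 2-fold, and Psmb9 and Psmb10 turn below 0 under centring on the median and spike-in scaling. The constitutive subunits Psmb5, Psmb6 and Psmb7 ran between -0.18 and 0.06, with a median of 0.03.

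**Figure D2:**
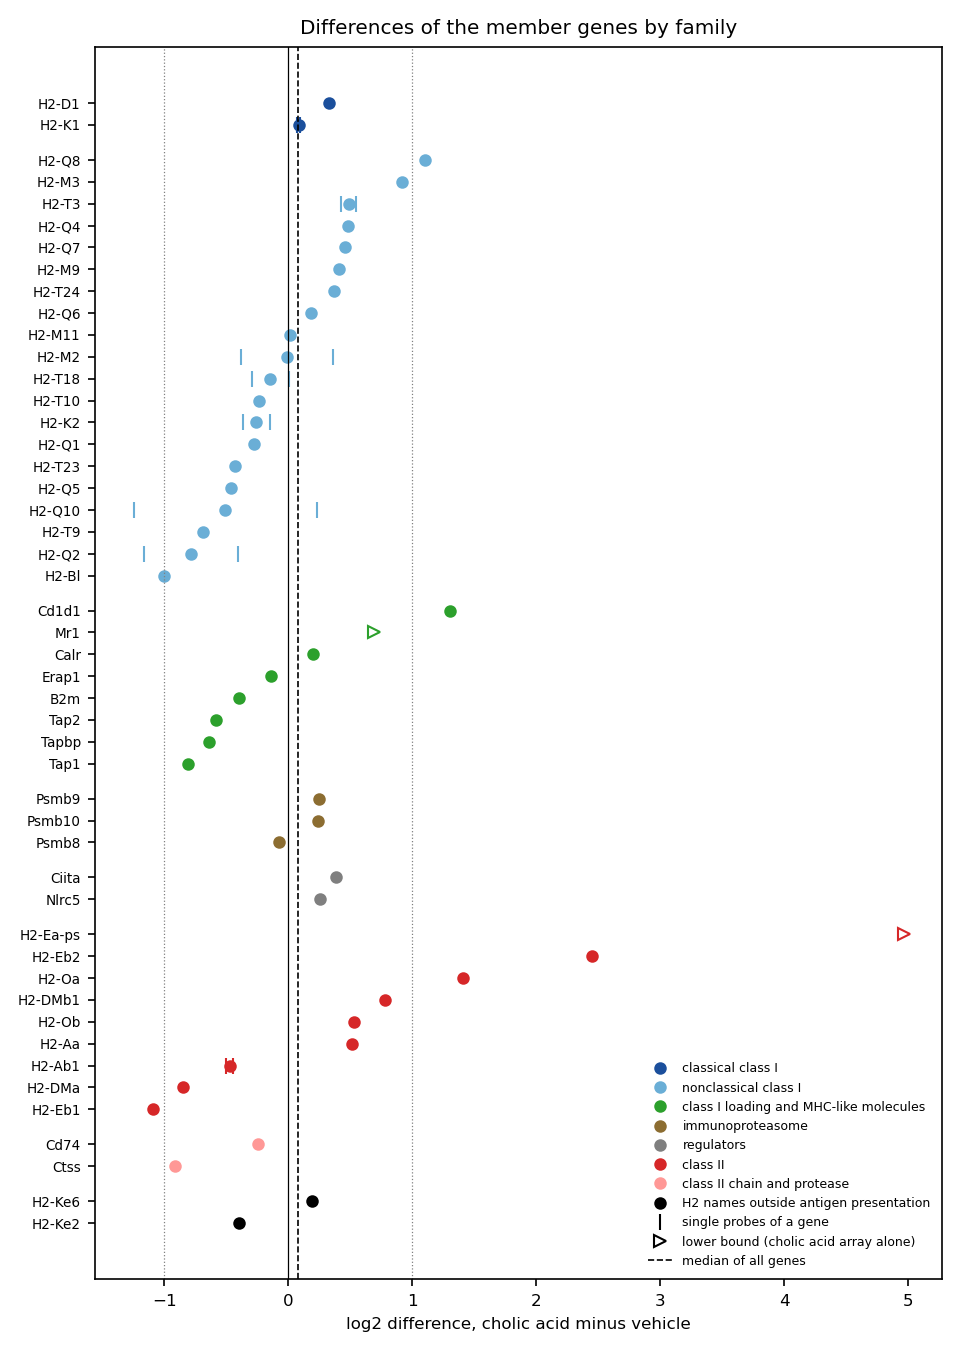
Log2 difference, cholic acid minus vehicle, of the member genes measured on both arrays (filled points) and lower bounds for the 2 measured on the cholic acid array alone (open triangles), grouped by family. Vertical ticks are the single probes of a gene, the dashed line is the median of all genes (0.08) and the dotted lines are 2-fold apart; centring on the median or spike-in scaling moves all points left by 0.56 or 0.84, which turns H2-D1, H2-K1 and H2-Aa, among others, below 0. Class II spans from -1.09 for H2-Eb1 to 2.45 for H2-Eb2.

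Class II was the family whose members lay farthest apart. Of its 10 genes 8 were measured on both arrays, 5 above 0 and 3 below. At least 2-fold higher were 2 (25.0%, beside 6.57% of all genes) and at least 2-fold lower 1 (12.5%, beside 2.05%). The median was 0.52, or 0.44 from the median of all genes, and it stayed above that median under all 13 settings (0.29 to 0.69), while falling below 0 itself under centring on the median and spike-in scaling. The 5 genes above the 75th percentile in mean scaled signal had a median of -0.47 and the 3 below it a median of 1.41. The same split over all genes gave -0.09 for 3108 bright genes and 0.16 for 9751 dim ones.

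H2-Ab1, the beta chain of the A molecule, gave 46700 with cholic acid and 94500 with vehicle on one probe (-0.50), and 44800 with cholic acid and 87100 with vehicle on the other (-0.44). Its partner H2-Aa, the alpha chain, gave 6360 with cholic acid and 6380 with vehicle (0.51). The chains of the A molecule thus lay on opposite sides of 0 at the reported scaling, but H2-Aa was below 0 under centring on the median and spike-in scaling. H2-Eb1, the beta chain of the E molecule, gave 13400 with cholic acid and 40700 with vehicle (-1.09, 2.12-fold lower). The software's error was 1340 on the cholic acid array and 4070 on the vehicle array, and the robust SD of differences over the 1000 genes of closest signal was 0.38. H2-Eb1 was at least 2-fold lower under all 13 settings.

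H2-Eb2, a second beta chain gene beside H2-Eb1, gave 99.2 with cholic acid and 26.0 with vehicle (2.45, 5.46-fold). Its software error was 10.3 with cholic acid and 3.94 with vehicle. It was the member with the largest difference among those measured on both arrays, beside a robust SD of 0.54 over the 1000 genes of closest signal, and was at least 2-fold higher under all 13 settings. The neighbouring beta chain genes thus lay on opposite sides of 0, H2-Eb2 higher and H2-Eb1 lower.

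H2-Ea-ps, the alpha chain gene of the E molecule, was detected on the cholic acid array alone. Its probe gave 318 with cholic acid and 7.66 with vehicle, with a software error of 32.1 on the cholic acid array and 3.95 on the vehicle array. It was at least 31.2-fold higher with cholic acid, the bound ranked 5 among the 747 genes detected on that array alone. Of those 747 genes, 49% had a bound of at least 2-fold. The probe is at chr17:34481469-34481528 (mm9, minus strand, per the file headers), and is printed because this result rests on it alone.

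H2-Ea-ps: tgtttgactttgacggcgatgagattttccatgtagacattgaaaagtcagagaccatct

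As background, this gene is known to vary between haplotypes of the mouse MHC. In the b haplotype, that of C57BL/6, a deletion removes its promoter and no E alpha chain is made, so it is named there as a pseudogene, whereas haplotypes such as d and k express it. Which haplotype the mice of either array had is not stated. Some other genes were looked at after the values of H2-Ea-ps were seen, and with earlier results of these data known. They are thus not an independent set, their directions differ, and a difference of strain was not tested. Pla2g2a, which is disrupted in several inbred strains, gave 12.5 with cholic acid and 346 with vehicle, at least 18.6-fold lower. Cwc22, which lies in a segment of variable copy number, gave 990 with cholic acid and 105 with vehicle on one probe (3.75), and 1370 with cholic acid and 265 with vehicle on another (2.89), while the remaining one, at 32.7 with cholic acid and 12.6 with vehicle, was detected with cholic acid alone. Aass, an enzyme of lysine breakdown, gave 1570 with cholic acid and 13.1 with vehicle, at least 153.8-fold higher. Mid1, which spans the pseudoautosomal boundary in some strains, gave 118 with cholic acid and 1050 with vehicle on one probe (-2.64). Its other probes gave 7.54 with cholic acid and 20.9 with vehicle, detected with vehicle alone, and 2.84 with cholic acid and 3.04 with vehicle, not well above background with either. These are all 4 genes that were looked at. With 1 array per group, a difference between the animals and an effect of the treatment cannot be told apart for H2-Ea-ps or any other member.

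Among the class II genes that handle peptide exchange, the DM genes also lay on both sides of 0. H2-DMa, the alpha chain of DM, gave 610 with cholic acid and 1570 with vehicle (-0.85), and was below 0 under all 13 settings. H2-DMb1, a beta chain of DM, gave 7630 with cholic acid and 6350 with vehicle (0.78), and was below 0 under spike-in scaling alone. H2-DMb2, the other beta chain, at 7.0 with cholic acid and 3.13 with vehicle, was not well above background with either.

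The DO genes were dim and higher or above 0, although H2-Ob was below 0 under centring on the median (-0.028) and spike-in scaling (-0.31). H2-Oa, the alpha chain of DO, known mainly from B cells and thymic epithelium, gave 91.9 with cholic acid and 49.6 with vehicle (1.41, 2.65-fold), with a software error of 9.71 on the cholic acid array and 6.02 on the vehicle array. It was under 2-fold with centring on the median (0.85), spike-in scaling (0.57) and normexp (0.91). H2-Ob, its beta chain, was read by 3 probes that disagreed. One gave 26.1 with cholic acid and 25.9 with vehicle (0.53). One gave 46.2 with cholic acid and 3.23 with vehicle, detected with cholic acid alone and at least 4.53-fold higher. The third, at 3.67 with cholic acid and 3.89 with vehicle, was not well above background with either.

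Cd74, the invariant chain, gave 26600 with cholic acid and 45000 with vehicle (-0.24). Ctss, or cathepsin S, gave 3530 with cholic acid and 9520 with vehicle (-0.91). Both were below 0 under all 13 settings and neither reached 2-fold. Over 9 other genes of class II processing and turnover, each measured on both arrays, the median was -0.36. Of these, 2 reached 2-fold higher (6.57% of all genes did) and 1 reached 2-fold lower (2.05% did). Cd83, which stabilises surface class II in activated B cells and dendritic cells, gave 208 with cholic acid and 32.1 with vehicle (3.21). Ctse, or cathepsin E, gave 55.1 with cholic acid and 18.4 with vehicle (2.10). Marchf8, a ubiquitin ligase that removes class II from the surface, gave 923 with cholic acid and 2790 with vehicle (-1.08).

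H2-Ke2, a prefoldin subunit gene, gave 449 with cholic acid and 847 with vehicle (-0.40), and H2-Ke6, a hydroxysteroid dehydrogenase gene, gave 1280 with cholic acid and 1600 with vehicle (0.19). These lie in the complex without a role in presentation.

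The regulators were near the middle. Ciita, the master coactivator of class II genes, gave 61.5 with cholic acid and 67.4 with vehicle (0.38). Nlrc5, its counterpart for class I genes, gave 259 with cholic acid and 311 with vehicle (0.25). Its second probe gave 26.8 with cholic acid and 12.0 with vehicle, detected with cholic acid alone and at least 2.63-fold higher. Ciita and Nlrc5 turn below 0 under centring on the median and spike-in scaling.

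The factors that Ciita and Nlrc5 work with bind promoters through the SXY module. Of 7 such factors 5 were measured on both arrays, with 0 at least 2-fold lower (2.05% of all genes were) and 1 higher (6.57% were). It was Nfya, a subunit of NF-Y, the factor that binds the Y box, with 102 on the cholic acid array and 39.6 on the vehicle array (1.88). Rfxank was lowest, with 468 with cholic acid and 772 with vehicle (-0.21). Rfxap was detected with vehicle alone and Rfx5 on neither array.

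Letters of the Y box were looked for in RefSeq promoters (GRCm38.p6, from 250 bases before to 50 after each start). A window was found for 40 of the 56 genes. The letters CTGATTGG, searched on both strands, were in the windows of 18 of the 40, where 4.70% of all 27025 genes had them. They were in both classical class I genes, 10 of 18 nonclassical genes, 4 of 8 class II genes, Tap1 and Psmb9. The letters read along the gene's own strand in the 4 class II genes and Psmb9. In the classical and nonclassical class I genes and Tap1 they were on the opposite strand. The match began at -53 in H2-D1, and in H2-K1 at -6 or 8, by the start used. Whether the class I matches are Y boxes of an SXY module was not tested. The Tap1 and Psmb9 windows overlap and hold the same match, at -222 from the Tap1 start and -11 from the Psmb9 start. Of the nonclassical genes with the letters, H2-M1, H2-M10.1, H2-M10.3, H2-M10.4 and H2-M10.6 were detected on neither array. The promoter sequences are those of the reference mouse and may differ from those of the mice used.

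The 4 class II genes with this Y box are shown because their differences ran both ways. Each line holds the 120 bases before the start, with the Y box in capitals. It began at -62 in H2-Eb1 (chr17:34305747-34305866, plus strand), -51 in H2-Aa (chr17:34287824-34287943, minus strand), -103 in H2-Eb2 (chr17:34325555-34325674, plus strand) and -46 in H2-Oa (chr17:34092259-34092378, plus strand).

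H2-Eb1: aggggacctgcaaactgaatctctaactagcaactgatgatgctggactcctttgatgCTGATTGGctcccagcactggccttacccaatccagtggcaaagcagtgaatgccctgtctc

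H2-Aa: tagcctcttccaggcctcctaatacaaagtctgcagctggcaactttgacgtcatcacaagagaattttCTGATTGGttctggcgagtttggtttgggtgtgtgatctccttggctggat

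H2-Eb2: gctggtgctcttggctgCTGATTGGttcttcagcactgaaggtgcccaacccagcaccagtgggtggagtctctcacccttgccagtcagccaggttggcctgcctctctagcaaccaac

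H2-Oa: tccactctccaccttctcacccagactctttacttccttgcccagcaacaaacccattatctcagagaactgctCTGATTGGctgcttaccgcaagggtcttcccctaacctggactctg

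The log2 differences of these genes were -1.09 for H2-Eb1, 0.51 for H2-Aa, 2.45 for H2-Eb2 and 1.41 for H2-Oa. A match of letters is a description and not a bound site.

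Interferon gamma is the known inducer of most of these genes. Its 11 signalling genes were all measured on both arrays, with a median of -0.06. Of these, 1 was at least 2-fold higher (6.57% of all genes were) and 0 lower (2.05% were). Ifng itself gave 114.9 with cholic acid and 48.59 with vehicle (1.76), and Irf1, a factor that carries the signal to class I genes, was lowest at -0.52. In 9 other genes of class I loading and the proteasome activator none reached 2-fold. Of them 7 were above 0 and 2 below, with a median of 0.17, from -0.28 for Sec61a1 to 0.53 for Psme3. Of 9 other class I-like molecules only Fcgrt, the neonatal Fc receptor (-0.78), and Cd1d2 (-0.14) were measured on both arrays. Ulbp1 was detected with cholic acid alone and the remaining 6 on neither array. Among 8 co-receptor and costimulation genes 6 were measured on both. Of these, 1 was at least 2-fold higher (6.57% of all genes were), Cd8b1 at 1.07. At least 2-fold lower was 1 (2.05% were), Cd274, or PD-L1, at -1.61, from 59.9 with cholic acid and 261 with vehicle. Cd86 and Cd40 were detected with cholic acid alone, as were 3.13% of all named genes.

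Markers of other cell types also differed between the arrays. Over all genes 6.57% were at least 2-fold higher and 2.05% at least 2-fold lower. Higher calls were more frequent among dim genes, at 785 of the 9751 below the 75th percentile and 60 of the 3108 above it. All 7 epithelial markers were measured on both arrays and none was 2-fold apart, with a summed scaled signal of 536 with cholic acid and 566 with vehicle. All 4 markers of leukocytes in general were at least 2-fold higher, with a summed scaled signal of 6.36 with cholic acid and 2.65 with vehicle. Of 8 B cell markers 6 were measured on both arrays, 4 of them at least 2-fold higher and 0 lower, with a median of 2.07 and a sum of 2.39 with cholic acid and 1.41 with vehicle. On the vehicle array most of that sum is Blnk, at 687 with cholic acid and 1180 with vehicle (-0.26), the one measured B cell marker below 0. Ms4a1, which encodes the B cell surface protein CD20, was detected with cholic acid alone and was at least 16.1-fold higher there.

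Of 16 markers of dendritic cells and macrophages 10 were measured on both arrays, with a median of 0.34. Beside 6.57% of all genes, 2 of the 10 were at least 2-fold higher (Itgax 1.07, Zbtb46 1.31), and 0 were lower, beside 2.05%. Their sum was 4.48 with cholic acid and 3.36 with vehicle. Lyz2 and Flt3 were detected with cholic acid alone, Adgre1 with vehicle alone, and Xcr1, Clec9a and Cd209a on neither array. Of the 10 T cell markers on the array 5 were at least 2-fold higher and 0 lower, with a median of 0.96 and a sum of 164.3 with cholic acid and 107.2 with vehicle. Most of that sum is the probe of Gzma, at 97600 with cholic acid and 87500 with vehicle (0.67). Cd4 was the T cell marker below 0 (-0.71). Of the endothelial markers 2 of 3 were measured on both arrays, with none 2-fold apart, and of the fibroblast markers 3 of 4, with Dcn higher at 1.60. The part of these cell types in the class II values was not tested. In RNA from a mixture, more cells of a type and more RNA per cell cannot be told apart.

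**Figure D3:**
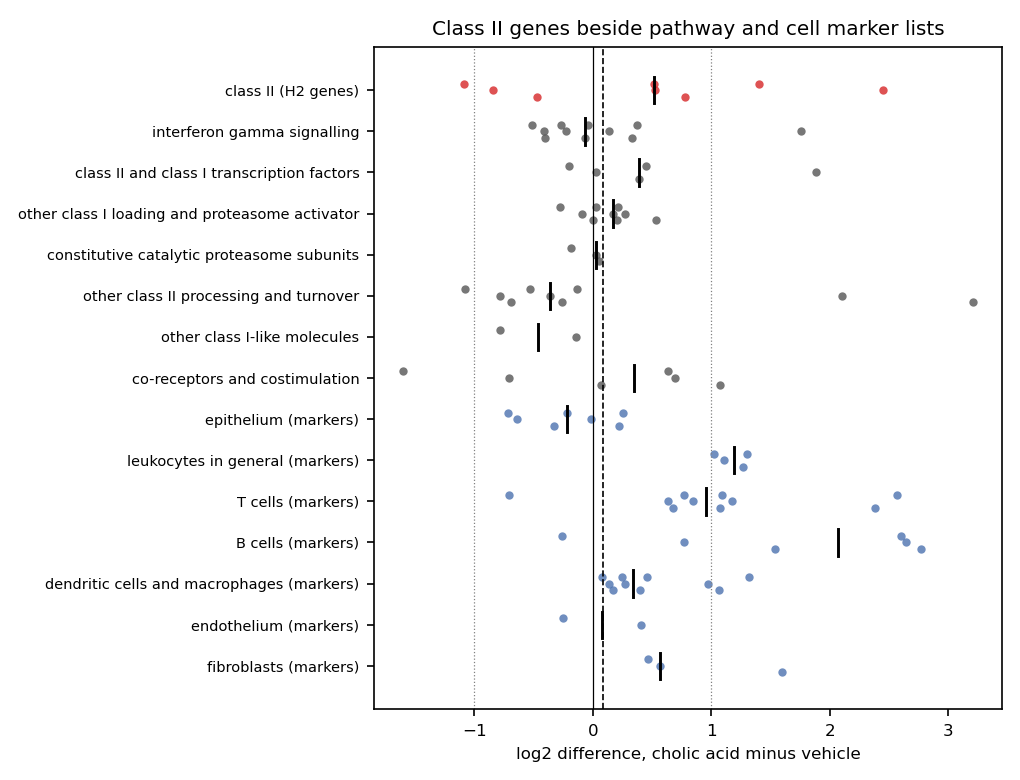
Log2 difference, cholic acid minus vehicle, of single genes measured on both arrays (points) with the median of each group (black bar), for the 8 class II H2 genes (red), the pathway lists (grey) and the marker lists (blue). The dashed line is the median of all genes (0.08) and the dotted lines are 2-fold apart. The B cell median of 2.07 and the leukocyte median of 1.19 lie right of the class II median of 0.52, and the epithelial median of -0.22 lies left of 0.

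**Figure D4:**
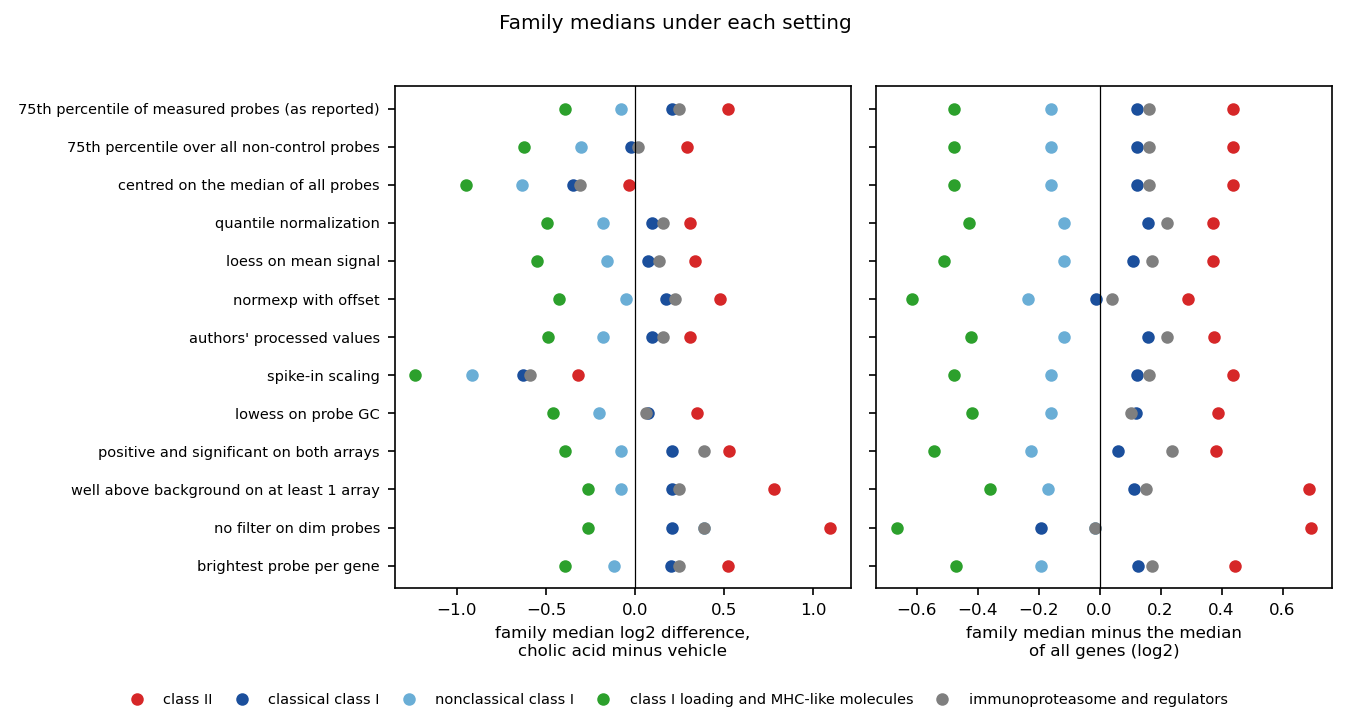
Median log2 difference of each family, cholic acid minus vehicle, under the 13 settings (left), and the same minus the median of all genes (right). Each point is 1 family under 1 setting. On the left class II is below 0 under centring on the median and spike-in scaling. On the right it lies above 0 under all settings, between 0.29 and 0.69. Class I loading and MHC-like molecules, as 1 family, lie below 0 there under all, between -0.67 and -0.36.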

How the data were processed

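The members and gene lists were chosen with earlier results of these data known. RNA was amplified and labelled with Cy3 per the labels' protocols. The deposited scanner files hold a spot intensity (processed signal) made by the authors with Agilent Feature Extraction 10.7.1.1 on array design 028005, per the file headers, which place the probes on mm9. The submitters' processing notes list version 9.5.1.1. Other deposited columns hold flags per spot (well above background, positive and significant, outlier), per the file headers. A deposited table of the authors' own processed intensities served as an alternative; its normalization is not given in the sources used here.

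Of 62976 spots, 3671 were controls; 119 spots on the cholic acid array and 124 on the vehicle array were left out for outlier flags, none of them a member's. No non-control spot was saturated. A probe's value was the mean log2 signal of its spots, from which the array's 75th percentile was subtracted. With 1 array per group no test was run, and the number of arrays limits the precision. The calculation was tested on simulated data. Genes named were all classical class I, class II and singly listed members, nonclassical members detected on any array, and list genes at least 2-fold apart or else the most extreme. Some list genes named as examples were chosen after their values were seen. Alternatives were 12 other scalings, corrections, filters and probe choices, and limits of 1.5-fold and 3-fold. Names of genes outside the module came from RefSeq (GRCm38.p6) by accession or symbol. Python 3.11.15, pandas 2.3.3, statsmodels 0.14.6, R 4.3.3 and limma 3.58.1 (normexp, offset 50) were used. The result of 1 marker gene is not reported here.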

Additional observations from a re-analysis of the deposited data

How the results depend on the processing

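No paired analysis was possible because each group had 1 array and no result comes from a test. Across the 13 settings, class II stayed above the median of all genes. The family of class I loading and MHC-like molecules and the nonclassical genes stayed below it. Classical class I lay above the median of all genes in 11, with normexp and no filter on dim probes as exceptions. Absolute medians follow the scaling, since centring on the median shifts all genes by -0.56 and spike-in scaling by -0.84. Centring on the median gave -0.55 for all members, -0.35 for classical class I, -0.63 for nonclassical class I and -0.036 for class II. It gave -0.95 for class I loading and MHC-like molecules and -0.31 for immunoproteasome and regulators. Spike-in scaling, which rests on 7 probes, gave -0.84, -0.63, -0.91, -0.32, -1.23 and -0.59 in the same order. Without a filter on dim probes class II reached 1.09.

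The 4 members at least 2-fold higher became 1 (H2-Eb2) under centring on the median, spike-in scaling, normexp and a 3-fold limit, 7 with probes well above background on at least 1 array, and 9 without a filter. The 2 lower became 6 with the 75th percentile over all probes, 12 under centring, 19 under spike-in scaling, 8 at a 1.5-fold limit and 0 at a 3-fold limit. The count under each of the other settings was within 1.5 times these. H2-Eb1 and H2-Bl were among those lower under all 12 other settings at the 2-fold limit.

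Over all genes, those higher (845) and lower (264) became 429 and 540 with the 75th percentile over all probes, 188 and 1568 under centring, and 120 and 3748 under spike-in scaling. Quantile normalization gave 450 and 424, the authors' values 454 and 428, normexp 271 and 104, and loess 506 higher. Probes positive and significant gave 1930 and 455, probes well above background on at least 1 array 1510 and 527, and no filter 2936 and 628. The 1.5-fold limit gave 2293 and 991, and the 3-fold limit 178 and 42. The causes were not tested. Signals near background limit the sizes of dim members: under normexp, which adds an offset, H2-Eb2 gave 1.36 and H2-Oa 0.91, against 2.45 and 1.41 as reported.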

Other observations

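Genes that share the MHC stretch of chromosome 17 with the members, between the outermost probes with H2 names (chr17:34076578-37618439, mm9), were measured in the same way. They include H2-Q3 (-0.71), a class I gene that the files list without an H2 name. Of 150 other named genes there, 103 were measured on both arrays, with 10 (9.71%, beside 6.57% of all genes) at least 2-fold higher with cholic acid, 1 (0.971%, beside 2.05%) at least 2-fold lower and a median of 0.11. A further 5, Mpig6b, Notch4, Rnf39, Sapcd1 and Tnxb, were detected with vehicle alone, and 1, D17H6S56E-5, with cholic acid alone. The complement genes of this stretch, chosen after their values were seen, were below 0 without reaching 2-fold: C2 at -0.88, Cfb, or factor B, at -0.79 and C4b at -0.56. Ly6g6e was the one lower gene, at -1.08.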
